A study of Mus musculus with 2 samples.

Results

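The genes described here encode the main structural proteins of the extracellular matrix: 44 collagen chains, 11 laminin chains, fibronectin (Fn1) and elastin (Eln). They were taken by gene symbol from the 32285 genes of the count tables, which gave 57 genes, and the choice used no measured value. Each was followed across the cell types of dissociated whole brain from 6-month-old mice, in 1 droplet-based single-cell library of genotype APP-KI Fit2-WT and 1 of genotype APP-KI Fit2-Mut. Both groups carry APP-KI, a knock-in at the amyloid precursor protein gene used to model Alzheimer's disease, so neither is a healthy brain. They differ in Fit2 (gene symbol Fitm2), which encodes an endoplasmic reticulum protein needed for lipid droplet formation, and the study's question concerned the disruption of Fit2 in macrophages. The number of animals behind a library, the driver of the deletion and the part of the gene removed were not given in the sources used here. With 1 library for each genotype there is no replicate check, no test was run, and a difference between genotypes is a difference between these libraries.

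Collagens are trimers of alpha chains. Fibrillar collagens such as types I and III bear tension, whereas collagen IV forms the mesh of basement membranes, the thin sheets under endothelium, around pericytes and smooth muscle, and at the glial surface of the brain. Laminins are trimers of 1 alpha, 1 beta and 1 gamma chain, which polymerise in the same sheets and bind integrins and dystroglycan on the cell surface. Fibronectin links cells to collagen, and elastin gives arteries their recoil.

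The libraries held 5209 Fit2-WT and 5824 Fit2-Mut cells after filtering, with medians of 6817 and 7376 UMIs (unique molecular identifiers, each marking 1 captured RNA molecule), and 9 cell barcodes occurred in both. In microglia-like cells 16 Fitm2 UMIs were counted with Fit2-WT and 1 with Fit2-Mut, against 92 and 88 in choroid plexus-like cells. A 3′-end count does not show whether an upstream exon was removed. Cells were grouped without use of the 57 genes into 20 types and clusters, and those with matching markers were named after them. Clusters 8 (led by Hapln1, Lhx2 and Cspg5), 20 (led by the contractile genes Myh11 and Tagln), 21 and 25 stayed unnamed. Cluster 8 met all 8 astrocyte markers and 2 of 7 oligodendrocyte precursor markers. Cluster 20 met 9 pericyte and 6 vascular smooth muscle markers. The border-associated macrophage-like cluster was also led by the dendritic-cell genes Cd209a, Clec10a and Flt3.

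A level below is the summed UMI count of a gene in a cell type, per 1000000 UMIs of that type (CPM), given for Fit2-WT first and Fit2-Mut second. Brackets hold exact Poisson 95% intervals, or for shares exact Clopper-Pearson 95% intervals. They cover counting error only, treat every UMI as independent, and understate the error for a gene whose UMIs sit in few cells. RNA free in the suspension was measured in 75833 and 76390 barcodes with 10 to 100 UMIs. A level whose interval did not lie above that free-RNA level in both libraries was not counted as above free RNA. Such a level is not shown to be background, since a type can hold far less of a gene than free RNA does. Lama2 stood at 247 and 237 CPM in free RNA but at 1.61 and 1.39 CPM in choroid plexus-like cells. Levels of different genes were not compared, since capture differs from gene to gene.

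Of the 57 genes, 53 had at least 20 UMIs over both libraries, and Col6a4, Col10a1, Col19a1 and Col24a1 had fewer. Among the 53, 50 stood above free RNA in both libraries in at least 1 type, 15 of them in exactly 1 type. Col7a1, Col11a2 and Col20a1 did so in none. Fibroblast-like cells held the most genes above free RNA (33), followed by cluster 20 (17), ependymal-like (16), olfactory ensheathing-like (15), endothelial-like (11), choroid plexus-like (8) and astrocyte-like cells (7). Microglia-like cells held 2 and border-associated macrophage-like cells 0. The like counts over all genes are not given here, so this order is not shown to be particular to these genes. The width of an interval also depends on the UMIs of a type, 520565 and 802261 in fibroblast-like and 16803188 and 16602153 in choroid plexus-like cells. For 35 genes the type with the highest level was the same in both libraries, most often fibroblast-like cells (12 genes), cluster 20 (7) or olfactory ensheathing-like cells (7). Summed over the 57 genes, the level was 5813 and 5659 CPM in fibroblast-like cells, 2730 and 3133 CPM in cluster 20, 1642 and 1721 CPM in endothelial-like cells, and 106 and 126 CPM in microglia-like cells. Choroid plexus-like cells, with 592 and 620 CPM, nevertheless held 36.2% and 31.4% of all UMIs of these genes, because they were the most numerous cells and held many UMIs each.

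**Figure D1:**
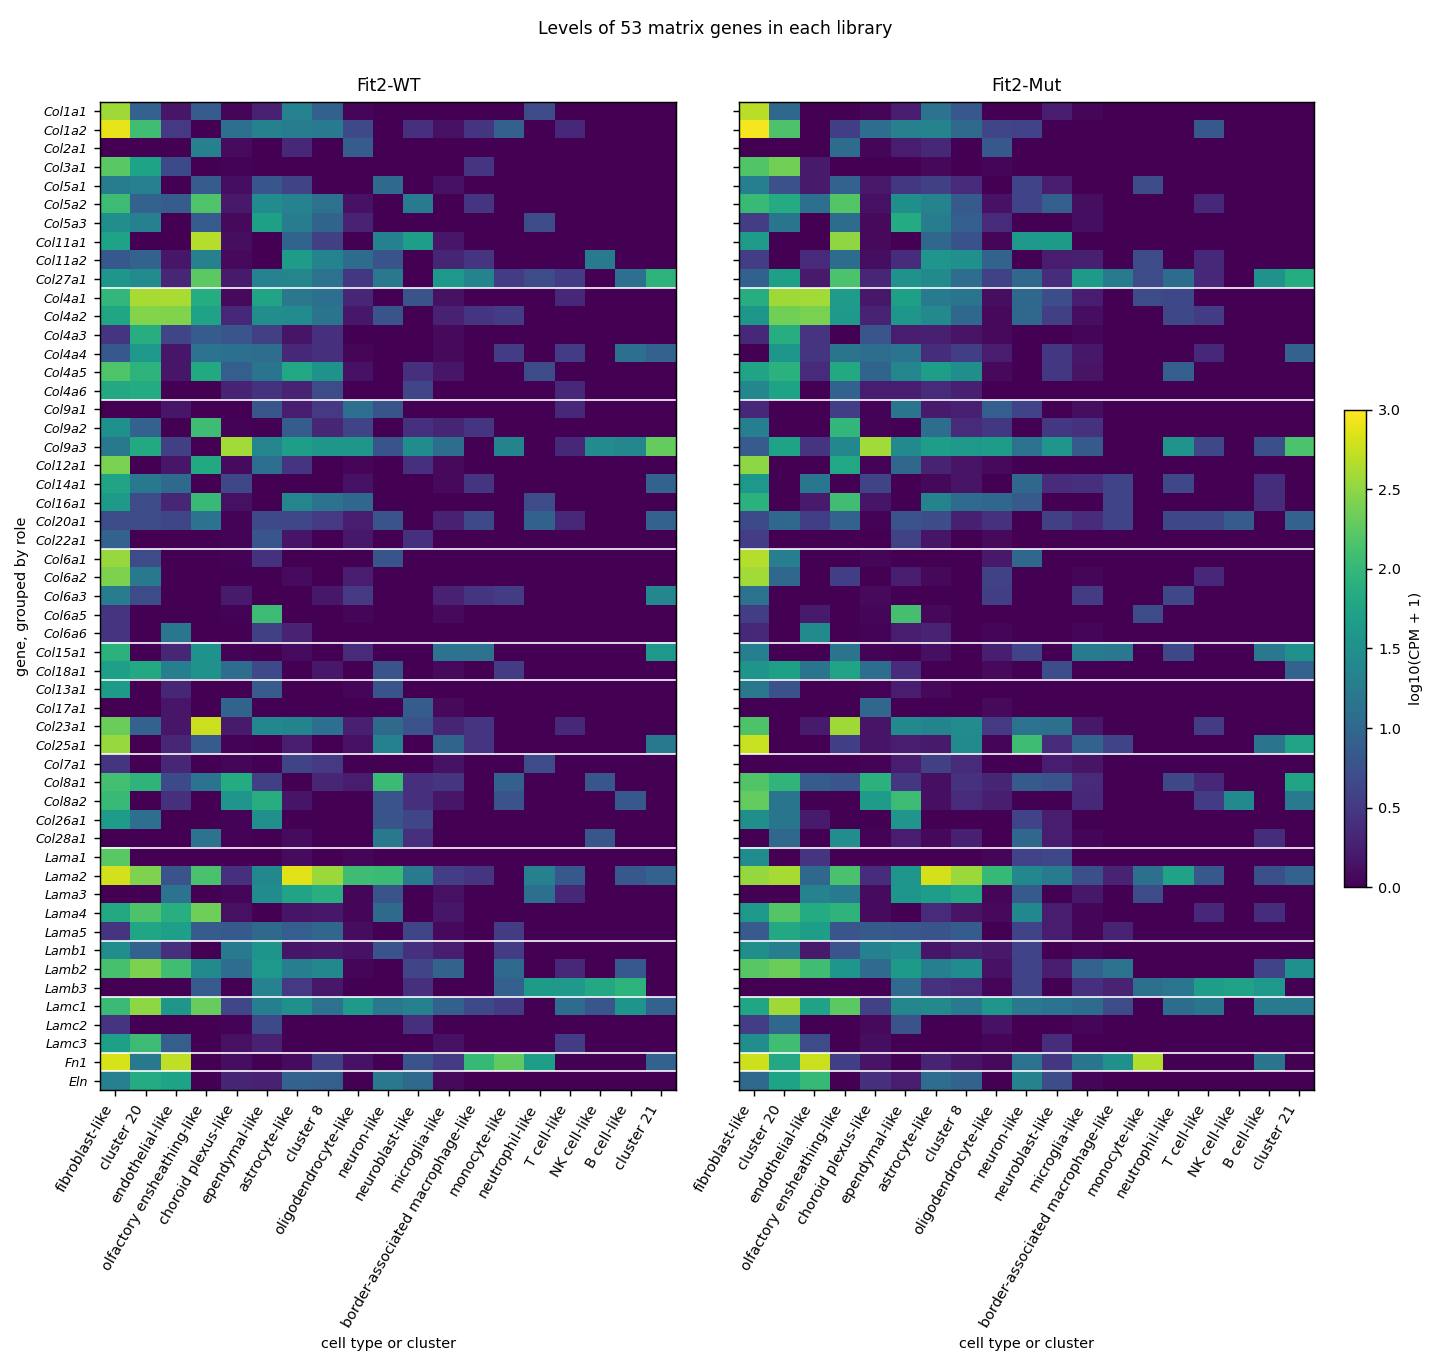
Level of the 53 genes with at least 20 UMIs (rows, grouped by role) in each cell type or cluster (columns), 1 panel per library, as colour on a scale of log10(CPM + 1). Fibroblast-like cells and cluster 20 carry the broadest sets of genes, while Col9a3 is high in choroid plexus-like and Lama2 in astrocyte-like cells.

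Collagen IV chains are encoded by 6 genes that lie head to head in pairs, each pair transcribed in opposite directions from a shared stretch of DNA. In GENCODE vM21 on GRCm38 the annotated starts of Col4a1 and Col4a2 lie 21 bases apart on chromosome 8, those of Col4a4 and Col4a3 72 bases apart on chromosome 1, and those of Col4a6 and Col4a5 1309 bases apart on the X chromosome. The promoter windows of the pairs whose levels are contrasted here are shown from RefSeq (GRCm38.p6), 250 bases before to 50 bases after each start, 5′ to 3′ on the gene's own strand. Col4a1 is at chr8:11312777-11313076 on the minus strand, Col4a2 at chr8:11312555-11312854 on the plus strand, Col4a5 at chrX:141475169-141475468 on the plus strand and Col4a6 at chrX:141474027-141474326 on the minus strand. Capitals mark the letters GGGCGG (the core of a GC box) or CCAAT, on either strand.
Col4a1: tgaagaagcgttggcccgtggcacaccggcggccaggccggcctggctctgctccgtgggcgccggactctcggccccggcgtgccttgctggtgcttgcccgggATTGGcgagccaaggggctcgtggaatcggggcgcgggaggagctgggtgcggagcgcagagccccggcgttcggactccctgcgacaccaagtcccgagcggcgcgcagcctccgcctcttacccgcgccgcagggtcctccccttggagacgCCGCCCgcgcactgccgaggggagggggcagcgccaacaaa
Col4a2: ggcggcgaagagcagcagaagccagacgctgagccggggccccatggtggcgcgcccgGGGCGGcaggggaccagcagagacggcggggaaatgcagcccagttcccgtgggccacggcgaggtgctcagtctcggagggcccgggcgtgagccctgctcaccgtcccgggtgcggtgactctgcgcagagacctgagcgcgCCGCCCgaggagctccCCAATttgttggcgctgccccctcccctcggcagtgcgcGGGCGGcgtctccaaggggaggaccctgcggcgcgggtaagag
Col4a5: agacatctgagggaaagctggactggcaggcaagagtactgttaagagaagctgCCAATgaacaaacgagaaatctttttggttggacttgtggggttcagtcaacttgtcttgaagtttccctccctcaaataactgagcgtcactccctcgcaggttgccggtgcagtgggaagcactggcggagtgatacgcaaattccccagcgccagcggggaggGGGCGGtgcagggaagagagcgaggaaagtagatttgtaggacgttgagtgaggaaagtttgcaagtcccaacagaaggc
Col4a6: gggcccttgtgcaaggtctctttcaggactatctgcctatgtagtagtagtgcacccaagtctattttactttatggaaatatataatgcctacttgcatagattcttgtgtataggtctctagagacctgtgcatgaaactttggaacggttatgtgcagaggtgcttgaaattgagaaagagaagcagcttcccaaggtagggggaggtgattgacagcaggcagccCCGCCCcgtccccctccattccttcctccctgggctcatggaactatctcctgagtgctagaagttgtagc
The Col4a1 and Col4a2 windows share 78 bases, read on opposite strands, and hold 74% and 73.7% G and C. The Col4a5 and Col4a6 windows share no base and hold 52.7% and 48.3%. GGGCGG occurred once in Col4a1, 3 times in Col4a2 and once each in Col4a5 and Col4a6. CCAAT occurred once in Col4a1, Col4a2 and Col4a5, and TATAAA in none of the 4 windows. Of 32851 RefSeq windows of this length, 35.7% held GGGCGG, 37.4% CCAAT and 13.6% TATAAA. Windows were found for 40 of the 57 genes (44 windows, some genes having more than 1 start), and of these 59.1% held GGGCGG, 31.8% CCAAT and 11.4% TATAAA. A match is a run of letters, not a measured binding site.

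Col4a1 and Col4a2 encode the chains of the ubiquitous collagen IV network, and both were highest in endothelial-like cells and cluster 20. Endothelial-like cells had 773 and 603 Col4a1 UMIs, or 416 [387–446] and 388 [358–420] CPM, and Col4a2 stood at 268 [245–293] and 248 [224–274] CPM. Cluster 20 had Col4a1 at 406 [332–491] and 377 [301–468] CPM and Col4a2 at 278 and 232 CPM. The intervals of endothelial-like cells and cluster 20 overlapped for both genes. Fibroblast-like cells were lower, with Col4a1 at 96 and 73.5 CPM, against free RNA at 13.6 and 10 CPM. At least 1 Col4a1 UMI was seen in 72.2% and 70.3% of endothelial-like cells and in 0.208% and 0.468% of choroid plexus-like cells, although the latter were deeper (medians of 10068.5 and 9862 UMIs against 3895 and 3949.5). With every cell thinned to 1000 UMIs the endothelial-like shares were 34.3% and 30.6%, and the choroid plexus-like shares 0 and 0.0669%.

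Because the genes of a pair could be counted with different efficiency, the share of Col4a1 among the UMIs of both chains was compared across types. It was 60.8% [58–63.5] and 61% [57.9–64] in endothelial-like cells, 59.3% and 61.9% in cluster 20 and 62.5% and 66.3% in fibroblast-like cells. The vascular and fibroblast-like populations thus drew the chains in nearly one proportion. In astrocyte-like cells the share was 35.1% [28–42.6] and 40.1% [34–46.4], and these intervals lay below those of endothelial-like cells in both libraries, although Col4a1 did not exceed free RNA in the Fit2-WT astrocyte-like cells (61 UMIs).

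The other collagen IV pairs had separate patterns. Col4a5 reached 148 and 54.8 CPM in fibroblast-like cells, 85 and 81.8 CPM in cluster 20 and 65.1 and 65.7 CPM in olfactory ensheathing-like cells. It was also above free RNA (19.7 and 20.6 CPM) in astrocyte-like cells, at 61.2 [53.9–69.1] and 47.2 [41.9–53] CPM, but had 1 and 2 UMIs in all endothelial-like cells. Col4a6, its head-to-head partner, had 0 UMIs in endothelial-like cells and 4 and 8 in astrocyte-like cells, against 69.5 and 54.6 CPM in cluster 20. Endothelial-like cells therefore showed the Col4a1 and Col4a2 pair with almost no UMIs of the X-linked pair, and astrocyte-like cells showed Col4a5 with few Col4a6 UMIs. Col4a3 and Col4a4, chains of the network found in kidney glomeruli, were counted at 73.4 and 72.8 CPM and at 38.6 and 36.4 CPM in cluster 20. They were also above free RNA in choroid plexus-like cells, Col4a3 at 5.24 and 5.18 CPM (88 and 86 UMIs) and Col4a4 at 11.3 and 10.9 CPM (190 and 181 UMIs).

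**Figure D2:**
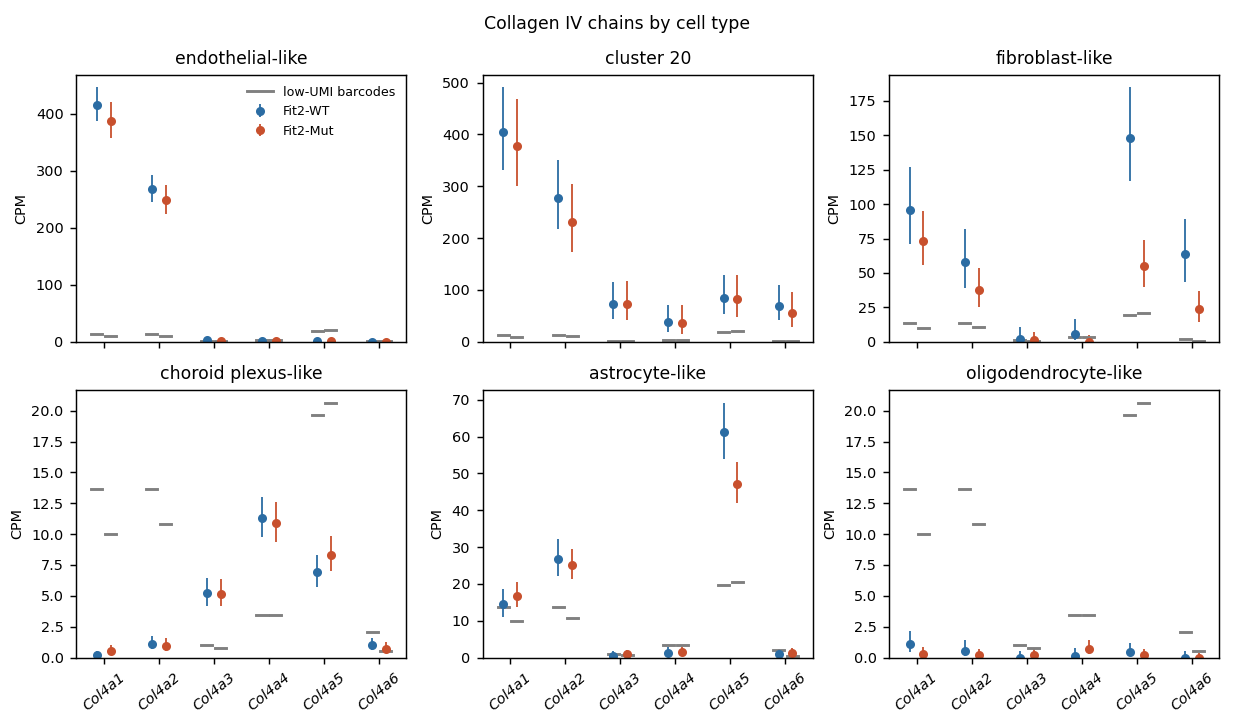
Level of the 6 collagen IV genes in CPM in 6 cell types or clusters, each panel with its own linear axis; points are the libraries, bars exact Poisson 95% intervals, and grey lines the free-RNA level of each library (barcodes with 10 to 100 UMIs). Endothelial-like cells show Col4a1 and Col4a2 with Col4a5 and Col4a6 near 0, whereas in astrocyte-like cells Col4a5 stands above its free-RNA level.

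Laminin alpha chains, which carry the integrin-binding end of the trimer, differed between glial and vascular cell types. Lama2 (chr10:26980036-27619758, minus strand), the alpha chain of the laminin lost in merosin-deficient muscular dystrophy, had 3072 and 3804 UMIs in astrocyte-like cells, or 728 [703–755] and 632 [612–652] CPM. At least 1 UMI was seen in 83.3% and 81.7% of these cells and in 1.73% and 1.54% of the deeper choroid plexus-like cells. Lama2 was likewise high in fibroblast-like cells (617 and 333 CPM) and cluster 8 (351 and 355 CPM), and low in endothelial-like cells (4.84 and 9 CPM, under free RNA at 247 and 237 CPM). Oligodendrocyte-like cells had 849 and 1041 Lama2 UMIs (116 and 101 CPM) in 321 of 736 and 380 of 929 cells, also under free RNA. Lama4 and Lama5, the vascular alpha chains, stood at 78 and 68.8 CPM and at 47.9 and 47.6 CPM in endothelial-like cells. Lama4 was also above free RNA in olfactory ensheathing-like cells (215 and 89.4 CPM), cluster 20 (143 and 155 CPM) and fibroblast-like cells (65.3 and 38.6 CPM). The share of Lama2 among the UMIs of Lama2 and Lama4 was 99.9% and 99.8% in astrocyte-like cells, 64.4% and 72.6% in cluster 20 and 5.84% and 11.6% in endothelial-like cells. Cluster 20, with its contractile and pericyte genes, lay between them, although Lama2 there (67 and 90 UMIs) did not exceed free RNA in both libraries.

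Astrocyte-like cells fell into 4 clusters that differed in their laminins, not counting the unnamed cluster 8, which also met all 8 astrocyte markers. Lama2 stood at 952 [897–1009] and 828 [784–874] CPM in cluster 4 and 968 [910–1028] and 917 [859–977] CPM in cluster 9, against 409 [377–441] and 397 [375–421] CPM in the Agt-led cluster 6. Lama3, better known from the laminin that anchors epidermis, had 234 of its 237 Fit2-WT and 269 of its 279 Fit2-Mut astrocyte-like UMIs in cluster 9 (led by Emx2os), where it reached 214 [187–243] and 259 [229–292] CPM. Cluster 4, of like depth, had 0 Lama3 UMIs in either library, a count that allows up to 2.51 and 1.88 CPM (3 counts). Cluster 8 also held Lama3, at 77.5 and 64.1 CPM, against 16.8 and 14.8 CPM in free RNA, and ependymal-like cells followed with 27.6 and 36.5 CPM.

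Lama1, an early embryonic alpha chain that persists in the leptomeninges, was found in fibroblast-like cells, at 171 and 27.4 CPM. Among beta chains, Lamb2 was highest in cluster 20 (255 and 214 CPM) and also above free RNA in fibroblast-like (133 and 163 CPM) and endothelial-like cells (118 and 120 CPM). Lamb1 made up 1.35% and 0.532% of Lamb1 and Lamb2 UMIs in endothelial-like cells, but 60.6% and 66.3% in choroid plexus-like and 47.6% and 38.6% in ependymal-like cells. The share of the beta chains thus differed between endothelial-like cells and the 2 epithelia. Lamb2 in choroid plexus-like cells (10.7 and 10.1 CPM) did not exceed free RNA (22.8 and 17.4 CPM). Lamb3, the epidermal beta chain, was seen in lymphocyte-like clusters. T cell-like cells had 34 and 40 UMIs, or 39.4 [27.3–55] and 45.8 [32.7–62.4] CPM, NK cell-like cells 64.5 and 52.4 CPM and B cell-like cells 86.8 and 38.5 CPM. The B cell-like cluster also met all 8 microglia markers. Neutrophil-like cells had 41.9 and 14 CPM and ependymal-like cells 20.5 and 10.3 CPM. Free RNA held 2.1 and 2.38 CPM of it, and choroid plexus-like cells 0 UMIs. The gamma chain Lamc1, a part of most laminins, was highest in cluster 20 (305 and 373 CPM) and was present at 38.2 and 52.7 CPM in endothelial-like cells. Lamc3 was also highest in cluster 20, at 112 and 118 CPM.

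Of the fibrillar collagens, Col1a1 and Col1a2, the chains of the major collagen of meninges, skin and bone, were highest in fibroblast-like cells, with 192 and 391 UMIs (369 [319–425] and 487 [440–538] CPM) and 399 and 733 UMIs (766 [693–846] and 914 [849–982] CPM). Col3a1, which co-assembles with collagen I in vessel walls, stood at 169 and 151 CPM there and at 54.1 and 232 CPM in cluster 20. The share of Col1a1 among UMIs of both type I chains was 32.5% [28.7–36.4] and 34.8% [32–37.7]. In choroid plexus-like cells only 2 Col1a1 UMIs stood against 191 and 179 Col1a2 UMIs, a share of 1.04% [0.126–3.69] and 1.1% [0.134–3.93]. The type I chains were thus not counted there in the fibroblast-like proportion, although Col1a2 at 11.4 and 10.8 CPM did not exceed free RNA at 17.6 and 13.7 CPM. The minor fibrillar chains were spread more widely. Col11a1, a collagen that nucleates fibrils in cartilage, was highest in olfactory ensheathing-like cells (469 [367–590] and 313 [259–374] CPM), as was Col5a2 (150 and 158 CPM). Col5a3 was highest in ependymal-like cells (49.9 and 68.9 CPM). Col27a1 was one of the 2 genes above free RNA in microglia-like cells, at 39.2 [34.2–44.7] and 42 [37.4–47.1] CPM against 21 and 24.3 CPM. Nearly all of its microglia-like UMIs (219 of 223 and 293 of 296) came from cluster 3, the deeper of the 2 microglia-like clusters, which was led by Spp1. Cluster 3 was also the larger, with 405 and 449 cells against 141 and 119. The median depths over both libraries were 12206.5 and 3934 UMIs. Levels within each of these clusters are not given here.

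Collagen VI forms beaded microfibrils around cells from Col6a1, Col6a2 and 1 of several longer chains. Col6a1 and Col6a2 were fibroblast-like genes, at 344 [295–398] and 462 [417–512] CPM and at 257 [216–305] and 383 [341–428] CPM, and these cells held 97.3% and 96.1% of all Col6a1 UMIs. Of the longer chains, Col6a5 had 125 and 189 UMIs in ependymal-like cells, 111 [92.7–133] and 130 [112–150] CPM, which made 96.9% and 96.4% of its UMIs in all cells. Col6a6 was mostly endothelial-like, at 14 [9.14–20.5] and 26.4 [18.9–35.8] CPM and 76.5% and 78.8% of its UMIs. The genes Col6a5 and Col6a6 lie on the same strand of chromosome 9, 27.9 kb apart (chr9:105856078-105960643 and chr9:105687809-105828160), yet their UMIs came from different cell types. Col6a3, the usual partner of Col6a1 and Col6a2, was above free RNA in fibroblast-like cells only, at 17.3 and 12.5 CPM on 9 and 10 UMIs.

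Among the fibril-associated collagens, which decorate other fibrils, Col9a3 (chr2:180597790-180622189, plus strand) was a gene of choroid plexus-like cells. It had 6418 and 6375 UMIs there, or 382 [373–391] and 384 [375–394] CPM, which made 89.9% and 86.3% of all its UMIs. Free RNA carried it at 106 and 97.5 CPM, and the level of astrocyte-like cells (45.5 and 45.7 CPM, in 11.4% and 15.9% of cells) did not exceed it. Within choroid plexus-like cells Col9a3 was lower in the Vat1l-led cluster 0 (320 [309–332] and 307 [296–319] CPM) than in cluster 1 (463 [448–479] and 465 [450–480] CPM). Collagen IX is a trimer of Col9a1, Col9a2 and Col9a3 chains, but choroid plexus-like cells had 1 and 1 UMIs of Col9a2. Its share of Col9a2 and Col9a3 UMIs was 0.0156% and 0.0157% there. In fibroblast-like cells the share was 66.7% [44.7–84.4] and 75% [50.9–91.3], on 16 and 15 Col9a2 and 8 and 5 Col9a3 UMIs. Col9a3 did not exceed free RNA in those cells. Col9a2 was highest in olfactory ensheathing-like cells (117 and 94.7 CPM). Col12a1 was fibroblast-like, at 248 [207–294] and 304 [267–345] CPM, whereas Col16a1 was highest in olfactory ensheathing-like cells at 104 and 118 CPM.

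Col8a1 and Col8a2 encode the short-chain collagen of vessel walls and of the membrane under the corneal endothelium. Col8a1 was above free RNA (12.3 and 9.52 CPM) in fibroblast-like cells at 125 and 153 CPM, in cluster 20 at 88.8 and 90.9 CPM and in choroid plexus-like cells at 69 [65.1–73.1] and 82.6 [78.3–87.1] CPM. Col8a2 was highest in fibroblast-like (104 and 189 CPM) and ependymal-like cells (72.2 and 114 CPM). Both chains were thus found in cells of the ventricular surface as well as in the fibroblast-like set.

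Among the transmembrane collagens, Col23a1 was highest in olfactory ensheathing-like cells at 573 [459–706] and 368 [310–434] CPM, followed by fibroblast-like cells at 211 and 145 CPM, and was above free RNA in 4 types. Col25a1 (chr3:130131501-130599877, plus strand), whose shed ectodomain is a known component of amyloid plaques, was highest in fibroblast-like cells at 344 [295–398] and 552 [502–606] CPM. Col17a1, a hemidesmosome protein of skin, was low but had 95.9% and 98.6% of its UMIs in choroid plexus-like cells (8.33 and 8.73 CPM, free RNA 2.1 and 3.7 CPM). Of the multiplexins, the basement membrane collagens that release endostatin-like fragments, Col18a1 was counted at 65.7 and 50 CPM in cluster 20. Col15a1 was the other gene above free RNA (6.82 and 7.4 CPM) in microglia-like cells, at 12.8 and 16.1 CPM.

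Fibronectin (Fn1, chr1:71585520-71653200, minus strand) was high in both fibroblast-like cells, at 659 [591–732] and 585 [533–640] CPM, and endothelial-like cells, at 515 [483–549] and 571 [534–609] CPM. It was seen in 75.6% and 78.5% of endothelial-like cells and in 0 of 185 and 0 of 186 T cell-like cells of similar depth, which allows a share of cells with a UMI of up to 1.62% and 1.61%. Monocyte-like cells followed with 182 and 447 CPM and border-associated macrophage-like cells with 101 and 31.1 CPM, of which the Fit2-Mut value did not exceed free RNA (21.5 and 21.1 CPM). Elastin (Eln, chr5:134702593-134747323, minus strand) had 99 and 157 endothelial-like UMIs (53.3 and 101 CPM), in 6.73% and 8.53% of these cells. Most of them came from a small endothelial-like cluster of 22 and 16 cells led by the arterial genes Gkn3, Cytl1 and Bmx, where Eln reached 783 [627–965] and 1552 [1305–1832] CPM. The larger endothelial-like cluster held 6.87 and 12.3 CPM. The same small cluster had Col18a1 at 225 and 201 CPM, against 5.72 and 2.05 CPM in the larger one.

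At a finer clustering resolution, chosen after the data were seen, fibroblast-like cells split into a Prg4-led cluster of 38 and 65 cells and a cluster led by Lum, Aldh1a2 and Slc6a13 of 22 and 16 cells. Part of the genes fell almost wholly to one of them. The Prg4-led cluster held all 179 and 443 fibroblast-like UMIs of Col25a1, all but 0 and 7 of those of Fn1 and all but 2 and 5 of those of Col8a2. The Lum-led cluster held each fibroblast-like UMI of Lama1 (89 and 22), Col15a1 (43 and 15), Col4a6 (33 and 19), Lamc3 (25 and 23), Col18a1 (25 and 28) and Col13a1 (22 and 12), and all but 2 and 3 of those of Col4a5. In the Prg4-led cluster a count of 0 UMIs allows up to 8.45 and 4.41 CPM (3 counts). In the Lum-led cluster Lama1 stood at 538 [432–662] and 181 [114–275] CPM, which makes it at least 63.6-fold and at least 41.2-fold higher. Other genes were found in both, among them Col1a1 (377 and 457 CPM Prg4-led, 350 and 660 CPM Lum-led), Col1a2 and Col6a1. The Lum-led cluster made 36.7% of fibroblast-like cells in Fit2-WT and 19.8% in Fit2-Mut.

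**Figure D3:**
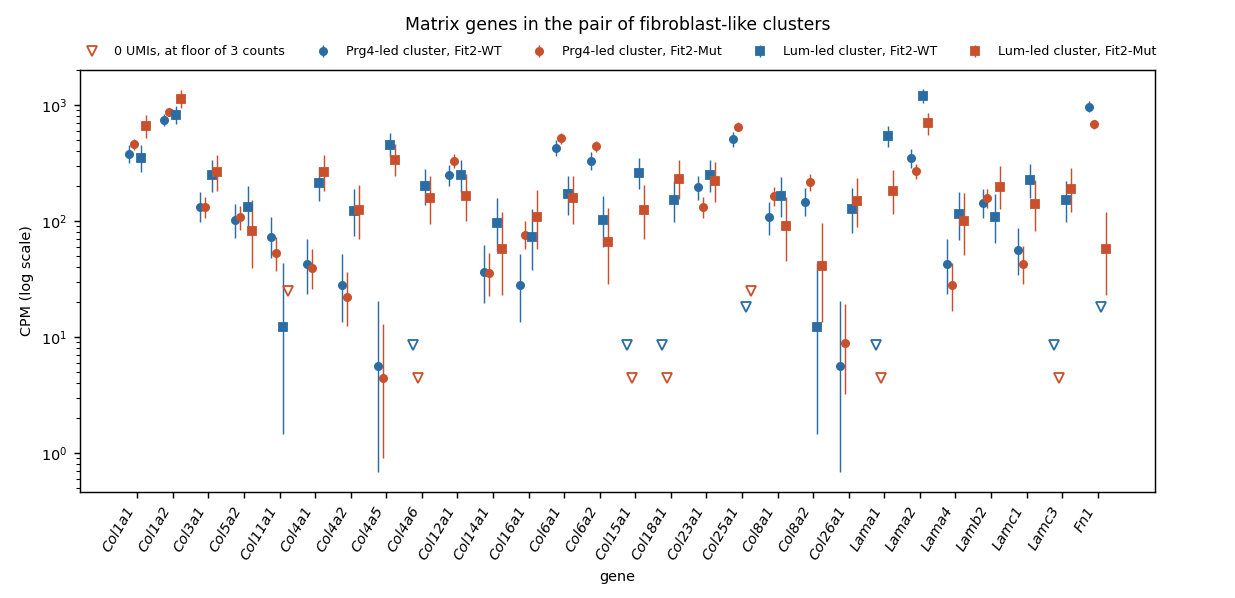
Level in CPM (log axis) of genes of the set in the Prg4-led (circles) and Lum-led (squares) fibroblast-like clusters, coloured by genotype, with exact Poisson 95% intervals as bars; open triangles mark 0 UMIs, drawn at the value of 3 counts. Lama1, Col15a1, Col4a6 and Lamc3 have 0 UMIs in the Prg4-led cluster, and Col25a1 has 0 in the Lum-led cluster.

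The genotypes were compared as the ratio of the Fit2-Mut to the Fit2-WT level within a type, with exact conditional 95% intervals, in the 8 types and clusters with at least 100 cells in each library. A gene counted as higher or lower where the ratio was at least 1.5-fold on at least 20 UMIs over both libraries. Over the 8 types this gave 123 pairs of gene and type, of which 19 were higher in Fit2-Mut (against 5.99% of all such pairs) and 8 lower (against 4.58%). The interval excluded 1 for 9 of the higher and 3 of the lower, and 3 of the higher (Eln and Col6a6 in endothelial-like and Col8a2 in ependymal-like cells) and 2 of the lower exceeded free RNA in both libraries. In choroid plexus-like cells 1 of 19 genes was higher (against 3.15% of all genes with as many UMIs) and 0 lower (against 2.93%). Col9a3, Col8a1 and Lamb1 there differed by less than 1.5-fold, and the median log2 ratio was -0.01 over both the 19 genes and all genes. In astrocyte-like cells 1 of 23 was higher, Col9a2 with 27 and 67 UMIs (all genes 4.31%), and 1 lower, Col1a1 with 85 and 78 UMIs (all genes 3.78%). In oligodendrocyte-like cells 3 of 15 were higher, Col6a2, Col23a1 and Col20a1 (all genes 5.18%), and 2 lower, Col9a1 and Col9a2 (all genes 3.08%). The 3 higher genes had 5 to 29 UMIs in a library and did not exceed free RNA. All 29 Col6a2 UMIs of Fit2-Mut came from 6 of 929 cells. In oligodendrocyte-like cells the 8 choroid plexus markers summed to 831 and 2920 CPM (0 and 0 at 0), and their part in these ratios was not tested. T cell-like cells had only 2 genes with enough UMIs, and 0 were higher (all genes 11.6%) or lower (all genes 7.49%).

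Microglia-like cells had 10 genes with enough UMIs, of which Fn1, Col6a3 and Lama2 were higher (all genes 6.68%) and Col9a3 and Col8a1 lower (all genes 3.79%). None of these 5 exceeded free RNA in both libraries. The 8 choroid plexus markers summed to 5691 and 3131 CPM in microglia-like cells (0 and 0 at 0), and their part in these ratios was not tested. The Fn1 UMIs numbered 13 in 9 cells of Fit2-WT and 96 in 32 cells of Fit2-Mut, a ratio of 5.97 [3.33–11.6], and both levels (2.28 and 13.6 CPM) were under free RNA. In Fit2-Mut, 7 cells with at least 5 UMIs held 55 of the 96. In those 7 cells the summed monocyte markers stood at 371 CPM and the T-cell markers at 87.5 CPM, against 21.2 and 2.69 CPM in Fit2-Mut cells without Fn1, and the median depth was 22021 UMIs against 10554. The part of these markers and of depth in the ratio was not tested. Fn1 was likewise higher in Fit2-Mut monocyte-like cells, by 2.46 [1.82–3.34] on 75 and 114 UMIs, where Fn1 was the only gene with enough UMIs, so 1 of 1 was higher (all genes 13.1%) and 0 lower (all genes 11.7%). Monocyte markers summed to 4517 and 4605 CPM in this cluster, the 6 neutrophil markers to 136 and 820 CPM (3 and 1 at 0), the 8 oligodendrocyte markers to 344 and 2130 CPM (2 and 0 at 0) and the 8 choroid plexus markers to 16833 and 718 CPM (0 and 6 at 0), and their part in the ratio was not tested. In border-associated macrophage-like cells it was lower, at 0.308 [0.192–0.486] on 56 and 31 UMIs, the 1 lower gene of 3 (all genes 12.9%, with 0 higher against 19.6%). In that cluster the 6 monocyte markers summed to 1294 and 396 CPM, with 0 and 1 of them at 0, and the 8 microglia markers to 8664 and 14554 CPM, with 0 at 0. Their part in the ratio was not tested. The difference between the macrophage-like and monocyte-like ratios was not tested.

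Endothelial-like cells had 5 of 14 genes higher (all genes 5.72%) and 0 lower (all genes 5.54%), with a median log2 ratio of 0.31 against -0.02 over all genes. The 5 were Eln, Col6a6, Col5a2, Lama2 and Lama3, of which only Eln and Col6a6 exceeded free RNA in both libraries and had intervals above 1. Over the 8 genes with at least 100 UMIs the median was 0.01, and the ratios of Col4a1 and Fn1 were 0.933 [0.837–1.04] and 1.11 [1.01–1.21]. Eln had a ratio of 1.9 [1.47–2.46]. It rested on the small Gkn3-led cluster, where the ratio was 1.98 [1.51–2.62], and without the 5 cells of each library with the most Eln UMIs the log2 ratio was 0.06 instead of 0.92. In the larger cluster it was 1.79 [0.815–4.07], which includes 1. Col6a6 had 26 and 41 UMIs and a ratio of 1.89 [1.13–3.21]. In endothelial-like cells the 5 erythroid markers summed to 104 and 28864 CPM (1 and 0 at 0) and the 8 astrocyte markers to 168 and 286 CPM. The 8 choroid plexus markers summed to 1835 and 859 CPM (1 and 3 at 0). The part of these markers in the ratios was not tested.

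Ependymal-like cells had 4 of 21 genes higher (all genes 7.77%), Col9a1, Col27a1, Col8a2 and Col4a5, and 1 lower, Lamb3 (all genes 7.2%). Col8a2 had 81 and 165 UMIs and a ratio of 1.57 [1.2–2.08], and the other 4 intervals included 1. In cluster 8, 2 of 19 were higher, Col25a1 and Col23a1 (all genes 6.07%), and 2 lower, Col5a2 and Col1a2 (all genes 4.57%). The Col25a1 count was 0 with Fit2-WT and 60 UMIs with Fit2-Mut, at least 15.7-fold higher. These 60 came from 4 cells with 48, 10, 1 and 1 UMIs, of which 3 joined ependymal-like cells at the finer resolution, and 0 and 1 UMIs then remained in the cluster, too few for a ratio. Col23a1 had a ratio of 2.35 [1.41–4.06] on 21 and 63 UMIs and a log2 ratio of 0.05 at the finer resolution.

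**Figure D4:**
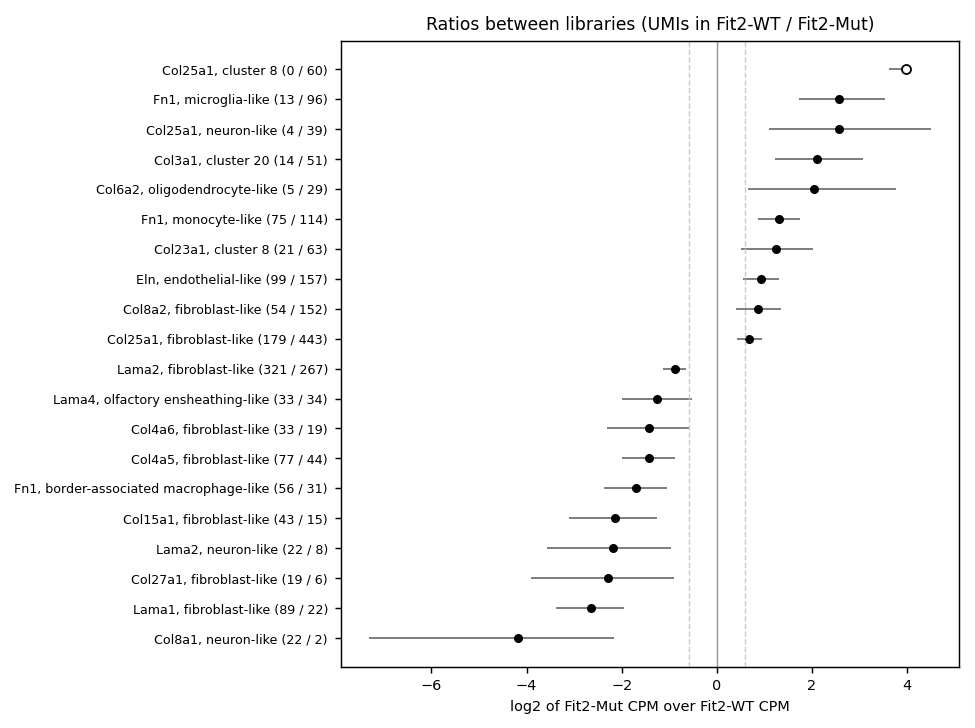
The 20 ratios of the Fit2-Mut to the Fit2-WT level (log2 scale) whose interval bound lay furthest from 1, 10 in each direction, with UMIs of both libraries in brackets and exact conditional 95% intervals as bars; dashed lines mark 1.5-fold, and the open point is a lower bound against 0 UMIs. Of the 10 lower ratios 6 are from fibroblast-like cells, among them Lama1 at -2.64.

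The remaining types had fewer than 100 cells in at least 1 library, and those with a called gene are given as values. Fibroblast-like cells had 3 of 33 genes higher in Fit2-Mut (all genes 14.1%) and 12 lower (all genes 12.7%). The higher genes were Col25a1 at 1.61 [1.35–1.92], Col8a2 at 1.83 [1.33–2.54] and Col16a1. The lower genes included Lama1 at 0.16 [0.0957–0.258], Col15a1 at 0.226 [0.117–0.416], Col27a1 on 19 and 6 UMIs, Col4a5 at 0.371 [0.25–0.544], Col4a6 at 0.374 [0.201–0.677] and Lama2 at 0.54 [0.457–0.637]. All 12 lower genes had a higher level in the Lum-led than in the Prg4-led cluster in both libraries, as did 1 of the 3 higher genes (Col16a1). The like count over all genes is not given here. The share of the Lum-led cluster was itself lower in Fit2-Mut, and its part in these ratios was not tested. Of the 3 higher genes, Col25a1 and Col8a2 belonged to the Prg4-led cluster. The median log2 ratio was -0.39 over the 33 genes and 0.06 over all genes, but 0.07 over the 18 genes with at least 100 UMIs, -0.15 within the Lum-led and 0.08 within the Prg4-led cluster. Within the Lum-led cluster the ratio was 0.786 [0.422–1.42] for Col4a6 and 0.746 [0.497–1.11] for Col4a5, intervals that include 1. Lama1 remained lower there at 0.337 [0.201–0.543], on 14 and 7 cells with a UMI, and Col15a1 at 0.476 [0.246–0.874]. Col25a1 within the Prg4-led cluster was at 1.29 [1.08–1.54]. In fibroblast-like cells the 9 pericyte markers summed to 1247 and 588 CPM, with 0 and 2 of them at 0, and the 8 choroid plexus markers to 638 and 4608 CPM, with 2 and 0 at 0. Their part in these ratios was not tested.

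In cluster 20, 2 of 17 genes were higher, Col3a1 and Lama2 (all genes 12.5%), and 0 lower (all genes 14.5%). Col3a1 stood at 4.29 [2.34–8.39], but all 51 Fit2-Mut UMIs came from 4 cells. In cluster 20 the 7 border-associated macrophage markers summed to 3.86 and 427 CPM (6 and 0 at 0), the 8 microglia markers to 65.7 and 591 CPM (3 and 0 at 0) and the 8 choroid plexus markers to 13293 and 30525 CPM (2 and 0 at 0), and their part in these ratios was not tested. The 5 collagen IV chains with enough UMIs in cluster 20 differed by less than 1.5-fold. In olfactory ensheathing-like cells 1 of 14 was higher, Col18a1 (all genes 18.3%), and 3 lower, Lama4, Col23a1 and Col4a1 (all genes 15.3%), with Lama4 at 0.416 [0.25–0.694] on 33 and 34 UMIs. There the 8 microglia markers summed to 130 and 1102 CPM (1 and 1 at 0) and the 8 choroid plexus markers to 885 and 10621 CPM (5 and 1 at 0). The part of these markers in the ratios was not tested. In neuron-like cells Col25a1 was higher on 4 and 39 UMIs (1 of 3 genes, all genes 22.2%), and Col8a1 and Lama2 lower (2 of 3, all genes 15.5%). All 22 Col8a1 UMIs of Fit2-WT neuron-like cells came from 1 cell, and 0 and 2 UMIs were left at the finer resolution, too few for a ratio. None of the 3 exceeded free RNA in both libraries. Lama2 there had 22 and 8 UMIs, and its log2 ratio was -0.1 with doublets kept. B cell-like cells had 1 of 2 genes higher (all genes 1587 of 5542) and 1, Lamb3, lower (822 of 5542). Lamb3 exceeded free RNA in both libraries, and its interval excluded 1. The 8 microglia markers summed there to 6561 and 13474 CPM, and their part in the ratio was not tested. Neuroblast-like cells had 1 of 6 higher (925 of 9247) and 1 lower (898). Neutrophil-like cells had 1 of 1 higher (756 of 3498) and 0 lower (409). The other intervals included 1.

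Genes that fold, process, bind or break down the same proteins were taken from lists drawn up from general knowledge. Their counts stand beside 14.1% of all genes higher and 12.7% lower in fibroblast-like cells, 5.72% and 5.54% in endothelial-like cells, and 12.5% and 14.5% in cluster 20. In fibroblast-like cells the collagen folding and crosslinking list, with the collagen chaperone Serpinh1 at 499 and 621 CPM and the prolyl isomerase Ppib at 542 and 576 CPM, had 2 of 18 genes higher and 2 lower. Procollagen processing, the trimming of propeptides by Bmp1-family and Adamts enzymes, had 3 of 4 higher and 0 lower. These were Tll1 (67.2 and 203 CPM), Adamts2 (102 and 163 CPM) and Bmp1, and the fourth, the enhancer protein Pcolce, stood at 346 and 373 CPM. Small proteoglycans and other glycoproteins had 3 of 16 higher and 8 lower, with the fibril-spacing proteoglycan Dcn at 4582 and 1845 CPM. Dcn and Lum of this list were among the leading genes of the Lum-led cluster, whose share of fibroblast-like cells was lower in Fit2-Mut. The part of that share in these values was not tested. Other basement membrane proteins had 0 of 6 either way, elastic fibre genes 1 of 13 higher and 2 lower, matrix receptors 4 of 18 and 3, matrix breakdown 1 of 11 and 2, and TGF-beta genes 3 of 13 and 1. In endothelial-like cells basement membrane proteins had 0 of 7 either way with a median log2 ratio of -0.24, and Egfl7 and Sparc, which binds collagen IV, stood at 1374 and 1193 CPM and at 1135 and 958 CPM. Endothelial-like matrix receptors had 2 of 13 higher and 0 lower. Cluster 20 had 5 of 15 matrix receptors lower and 1 higher, among the lower the shared integrin chain Itgb1 at 1159 and 764 CPM.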

How the data were processed

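Single-cell RNA was measured in 2 libraries of dissociated whole brain, 1 for each genotype. The authors deposited unfiltered matrices of UMI counts per gene and barcode, with no normalisation. The matrices were made with Cell Ranger, version 7.1.0 per the file headers, whereas the submitters' processing notes give 7.0.0 and the build mm10; the annotation release and the treatment of intronic reads were not given in the sources used here.

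Barcodes with at least 1000 UMIs, at least 500 genes and at most 10% mitochondrial UMIs were kept, and Scrublet doublets (scanpy 1.11.5, run at an expected 0.8% per 1000 barcodes) were removed, 2.33% and 2.59% of barcodes. The 2000 most variable genes, without the 57 genes, gave 30 principal components, 15 neighbours and Leiden clusters (leidenalg 0.10.2) at resolution 1. A cluster was named from marker lists, and stayed unnamed where another type's markers led it. Counts were summed per library and type and divided by the total (CPM). Ratios carry exact conditional intervals, and their calculation was tested on simulated data. Free RNA was pooled from barcodes with 10 to 100 UMIs. Cells are not replicates, so no p-value was computed. Total UMIs were 52491901 and 63234140.

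The genes and lists were chosen with earlier results of these data known. The values given are for the up to 30 genes with the most UMIs that stood above free RNA, the up to 10 called ratios each way whose interval bound lay furthest from 1, and up to 4 genes of each other list; other genes named were chosen after their values were seen. Promoter sequences are from RefSeq on GRCm38.p6, and positions from GENCODE vM21 on GRCm38. Alternatives were doublets kept, at most 5% mitochondrial UMIs, at least 2000 UMIs and 1000 genes, the 57 genes allowed in the clustering, Leiden resolution 2, TMM scaling (edgeR 4.0.16), the mean of per-cell CPM, leaving out the 5 cells of each library with the most UMIs of a gene, and other minimum UMI counts.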

Additional observations from a re-analysis of the deposited data

How the results depend on the processing

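Over the compared types, 19 calls were higher in Fit2-Mut (5.99% over all genes) and 8 lower (4.58%). With at least 100 UMIs over both libraries, 3 were higher and 3 lower. Without the 5 cells of each library with the most UMIs of the gene, 12 were higher, and with at most 5% mitochondrial UMIs 13 were lower. The shares of 5.99% and 4.58% belong to the 19 and 8 calls only. Numbers tested and shares over all genes under the other settings are not given here, so those counts have no general rate beside them. No ratio could be given for Col25a1 in cluster 8 at Leiden resolution 2 (0 and 1 UMIs), nor for Col8a1 in neuron-like cells at that resolution or with the 57 genes in the clustering (0 and 2 UMIs each). Of the other alternative values, 118 counts and list medians stayed close (counts within 1.5 times, medians within the order-statistic 95% range of their list), although the fibroblast-like median of -0.39 was 0.07 with at least 100 UMIs. Of the single-gene ratios 134 stayed within their 95% interval and 22 moved out of it without changing direction. The fibroblast-like clusters and the endothelial-like value without the Gkn3-led cluster were alternatives chosen after seeing the data. Without the Gkn3-led cluster the endothelial-like median was 0.36. TMM scaling shifted no type by 0.1 or more on the log2 scale. No paired analysis was possible because each genotype had 1 library. Genes with fewer than 20 UMIs in a type, and types with few cells, were too shallow for a ratio.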
